A study of Rattus norvegicus with 26 samples.

Results

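The first step of smooth muscle cell (SMC) differentiation was described in Cl19, a line of rat multipotent adult progenitor cells (rMAPCs), as the change from day 0 (d0) to day 2 (d2). All arrays labelled Cl19 on d0 or d2 were taken, which were 6 of the 26 arrays of the series, and 5 of them entered the main comparison because 1 array of d2 resembled the other line. Cl19 is a single Oct4-expressing clone from bone marrow of a 3 week old female Fischer rat. RNA of d0 came from undifferentiated cells, and RNA of d2 from cells kept for the first 2 days of a 6 day course in serum-free basal rMAPC medium with TGF-β and PDGF-bb. The course was also followed on d4 and d6 and in 3c3, a clone from bone marrow of an E18 female Fischer rat, with 3 arrays per line and day, and 2 arrays held commercial rat aortic SMC RNA. The study's supplement calls the arrays of a day biological replicates, but neither it nor the labels say whether these were separate cultures, and p-values measure the spread between these arrays. No arm without the growth factors was analysed here, so that the effect of the factors cannot be told apart from that of the change of medium or of time in culture.

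TGFβ binds paired serine/threonine kinase receptors that phosphorylate Smad2 and Smad3, which enter the nucleus with Smad4 and bind DNA next to other factors. Nodal and activin use the same Smads, and the Lefty proteins are secreted inhibitors of Nodal whose genes are themselves Nodal targets. Contractile SMC genes are driven by SRF, which binds CArG boxes together with myocardin family cofactors and remodelling complexes of the BAF type.

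Each sample was hybridized alone to an Agilent rat array, and levels are quantile-normalized log2 intensities, on which 1 unit is a doubling. They rank the same probe across arrays and do not rank different genes. The share of gene features that stood well above background ran from 52.7% to 56.6% on the d0 arrays and from 54.4% to 58.3% on the d2 arrays. No feature of the 6 arrays was saturated. The array labelled Cl19 d2 replicate 1 lay closer to the 3c3 arrays of its day (root mean square distance 0.382 to 0.538) than to both remaining Cl19 arrays of its day (0.876 and 0.917). The 3c3 arrays of d2 lay 0.443 to 0.647 from each other. There were 24 probes over 1 log2 unit higher on all Cl19 than on all 3c3 arrays of d0, d4 and d6, and their median was 3.01 on this array, between 2.35 and 3.30 on the 3c3 arrays of d2, and 6.60 and 6.81 on Cl19 d2 replicates 2 and 3. It was set aside for the main values, and results were computed again with it. Whether it holds a swapped or a mixed sample was not tested. The comparison of the lines is affected most, since an array was left out for its likeness to the line compared.

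**Figure D1:**
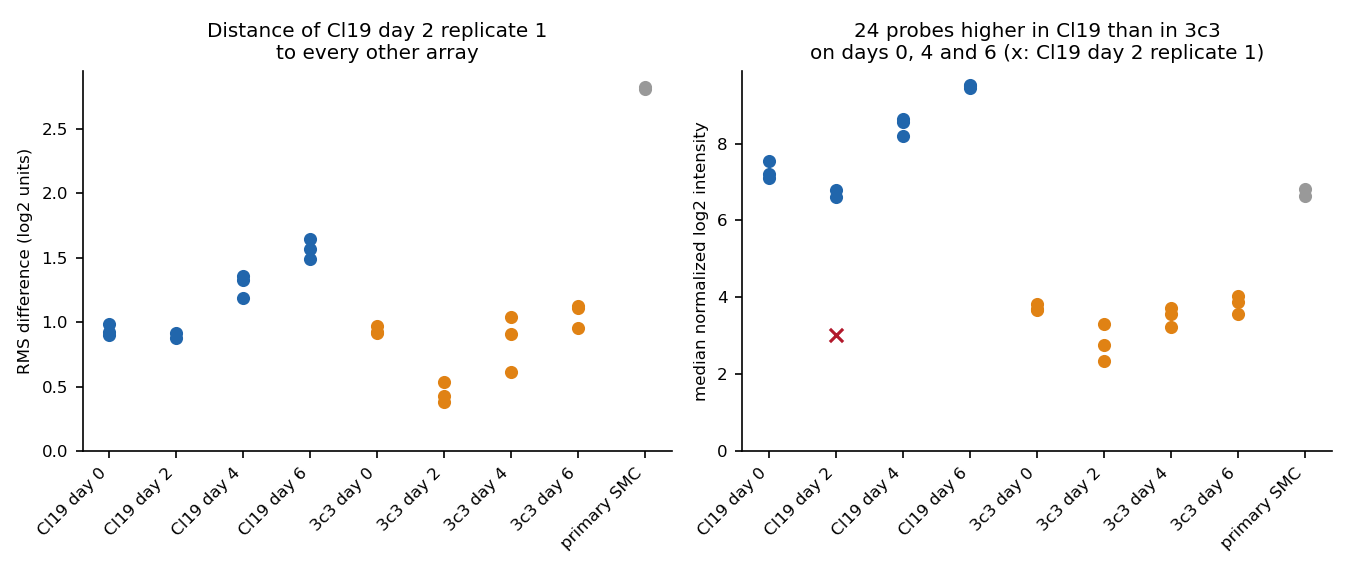
Left, root mean square difference in log2 units between Cl19 d2 replicate 1 and each other array, 1 point per array. Right, median level of the 24 probes that separate the lines on d0, d4 and d6, 1 point per array, with the cross for Cl19 d2 replicate 1 at 3.01, beside the 3c3 arrays and below the other Cl19 arrays. Primary SMC stands for the aortic SMC RNA.

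By limma with the slide as a block, 7923 of 24673 probes tested passed a Benjamini-Hochberg adjusted p of 0.05 (32.1%), 3638 of them higher on d2 (14.7%) and 4285 lower (17.4%). In genes, with 1 probe each, 4360 of 11760 passed (37.1%), 2154 higher (18.3%) and 2206 lower (18.8%), and the median change over all genes tested was -0.05. By fitted change, 345 genes were higher by over 8-fold and 128 lower. Both numbers hold genes not well above background on 1 of the days, for which only a bound on the fold is known. An example is *Ifit3*, with a fitted 10.7-fold rise and a bound of 2.42-fold. Of the genes past the threshold, 255 were well above background on both d2 arrays and on no d0 array, and 93 on every d0 array and neither d2 array. These counts are not alike, since the first asks for 2 bright arrays and the second for 3, and more features stood above background on both d2 arrays than on d0. The split depended on the scaling, and was 1992 genes higher and 3104 lower with scaling by the 75th percentile (median change -0.16) and 2747 higher and 1391 lower with the authors' unscaled log2 table (median 0.11). With all 3 d2 arrays, 7916 of 24442 probes passed (32.4%, with 14.6% higher and 17.7% lower), and 6848 probes passed in both fits in the same direction. Of the 7923 probes past the threshold in the main fit, 5 had the opposite sign with all 3, whether or not they passed there. In bulk RNA, fewer cells of a type and less RNA per cell cannot be told apart.

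Among genes well above background on every d0 array and on d2 replicates 2 and 3, the largest rise was that of *Lefty2*, the inhibitor of Nodal, measured by a probe at chr13:96626239-96626298 of the rat assembly rn4. Its levels were 3.65, 2.88 and 3.67 on d0 and 14.01 and 13.87 on d2, with 7.55 on the d2 array set aside. The fitted change was 10.38 (SE 0.81, adjusted p = 3.59e-07), and the change from d0 was 10.997 on d4 and 12.43 on d6, comparisons that share the d0 arrays. The d0 and d2 levels lay far apart, with the array set aside between them and near the 3c3 d2 mean of 7.30. Next came *Nptx2*, a secreted neuronal pentraxin, at 4.64, 4.33 and 4.94 on d0 and 12.79 and 13.54 on d2, a change of 8.41 (SE 0.72, adjusted p = 8.57e-07). *Tmprss2*, a serine protease of epithelial membranes, had 4.51, 4.52 and 4.85 on d0 and 12.46 and 12.99 on d2, a change of 8.16 (SE 0.29, adjusted p = 5.18e-10). *Apoa4*, an apolipoprotein of gut and yolk sac endoderm, had 4.76, 5.17 and 5.08 on d0 and 12.18 and 13.51 on d2, a change of 8.003 (SE 0.82, adjusted p = 4.97e-06). The levels of all 3 genes on d0 were low and close together, and d2 replicates 2 and 3 lay far above them. The array set aside was at 7.42 for *Nptx2*, nearer to d0, at 10.07 for *Tmprss2* and at 12.42 for *Apoa4*. *Car2*, a cytosolic carbonic anhydrase, had 4.67, 4.36 and 4.60 on d0 and 12.39 and 12.56 on d2, a change of 7.96 (SE 0.32, adjusted p = 1.09e-09). *Fgf8*, a ligand made during gastrulation, had 5.38, 5.38 and 5.92 on d0 and 13.53 and 13.27 on d2, a change of 7.85 (SE 0.49, adjusted p = 3.95e-08). For both the array set aside lay between the days, at 8.83 and 10.32. *Krt7*, a keratin of simple epithelia, went from 4.52, 4.63 and 5.12 to 12.90 and 12.61, with 6.00 on the array set aside, nearer to d0. *Myl7*, the atrial myosin light chain, went from 3.06, 2.46 and 3.08 to 10.50 and 10.46, with 10.75 on the array set aside, above both others. These 2 genes thus stood at opposite ends of what that array showed, and their means on the 3c3 d2 arrays were 6.35 and 10.90. *Ttr*, a plasma carrier of thyroxine and of retinol with its binding protein, changed by 7.67 (SE 0.83, adjusted p = 7.76e-06). *Igfbp2*, which binds insulin-like growth factors, changed by 7.40 (SE 0.34, adjusted p = 2.39e-09). On the array set aside, 8 of these 10 genes were below both other d2 arrays and none was at its d0 level. The tenth of them stood close to the next such gene, *Otx2*, at 7.21. *Pdlim3* (8.14) and *Cxcr4* (7.73), described below with their lists, rose as far but stood well above background on 2 and 1 of the 3 d0 arrays.

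Falls were smaller. *Pou5f1*, which encodes Oct4, a factor that maintains pluripotency, had 10.31, 10.31 and 10.22 on d0 and 4.58 and 4.59 on d2, a change of -5.88 (SE 0.39, adjusted p = 8.16e-08). Arrays of the same day lay close together, while the array set aside had 8.77, closer to d0 and near the 3c3 d2 mean of 8.49. *Bpifb6*, a lipid-binding protein gene, had 9.67, 9.42 and 9.63 on d0 and 3.51 and 3.59 on d2, a change of -5.97 (SE 0.30, adjusted p = 6.59e-09). *Phactr3*, which binds actin and protein phosphatase, had 10.67, 10.35 and 10.53 on d0 and 3.55 and 4.94 on d2, and its d2 arrays differed from each other by more than its d0 arrays did. *Cd7*, known as a T cell surface protein, fell by 5.94 (adjusted p = 4.98e-08). *Spn*, the leukocyte sialoglycoprotein CD43, fell by 5.86 (adjusted p = 9.59e-06). *Tfap2e*, an AP-2 factor, fell by 5.59 (adjusted p = 8.01e-09). The other genes among the 10 largest falls were *Sncb*, a synuclein (-5.32), *C5ar2*, a complement receptor (-5.20), *Cd200*, an inhibitory surface ligand (-5.10), and *Gpat2*, an acyltransferase known from testis (-5.10). For all 10 the array set aside lay above both other d2 arrays, and the next gene in order was *Cass4*, a focal adhesion scaffold, at -4.998.

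**Figure D2:**
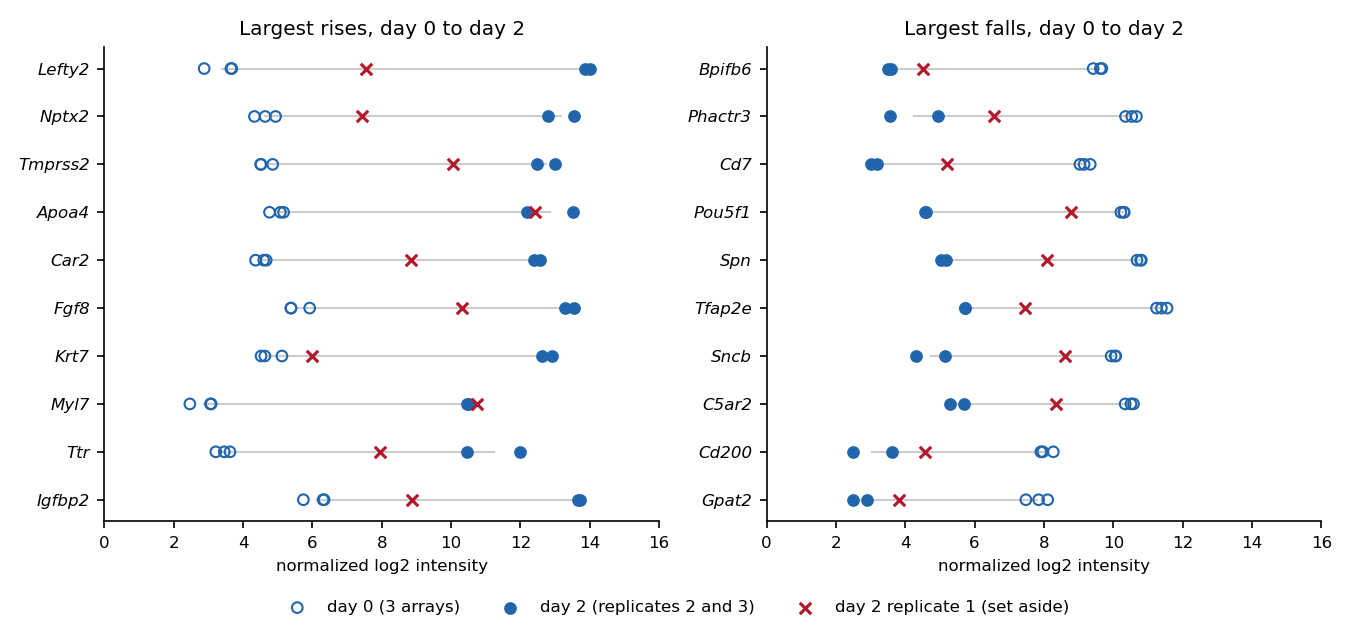
Normalized log2 intensity of the 10 genes with the largest rise (left) and the largest fall (right) among genes well above background on every d0 array and on d2 replicates 2 and 3, with open circles for the 3 d0 arrays, filled circles for d2 replicates 2 and 3, a cross for d2 replicate 1, and a line between the means. In every gene the d0 and the filled d2 circles are far apart, and the crosses of most genes lie between them, as for *Lefty2* at 7.55.

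Genes without a d0 array well above background give only a lower bound. *Apob*, the structural apolipoprotein of lipoprotein particles, was at least 384-fold higher on d2 (adjusted p = 1.09e-09), with 10.50 and 11.39. *Dcdc2*, a doublecortin-domain protein of cilia, was at least 183-fold higher, with 9.55 and 10.20. Both d2 arrays were bright for these genes, and the array set aside was lower, at 6.37 and 5.12. *Crispld2*, a secreted protein, was at least 157-fold higher. *Rgs8*, which speeds G protein inactivation, was at least 90.6-fold higher, and *Lcp1*, an actin bundler of blood cells, at least 85.8-fold. *Krt20*, a keratin of gut epithelium, was at least 68.7-fold higher, and *Ntm*, the adhesion protein neurotrimin, at least 64.6-fold. On the array set aside *Rgs8* and *Ntm* were not well above background, at 2.35 and 1.80. In the other direction, *Tmem35a*, a membrane protein, went from 7.98, 8.23 and 8.16 on d0 to levels not well above background on d2, at least 71.6-fold lower (adjusted p = 4.12e-10). *Klk6*, a kallikrein protease, was at least 51.3-fold lower, and *Pth2r*, a parathyroid hormone receptor, at least 45.1-fold. *Rgs7bp* and *Syndig1*, known from neurons, were at least 29.3-fold and 27.1-fold lower. *Elfn1*, a synaptic protein, was at least 21.6-fold lower, *Lyve1*, the hyaluronan receptor of lymphatic endothelium, at least 15-fold, and *Tmod2*, which caps actin filaments, at least 14.8-fold. These 8 genes left the measurable range on d2, so that their bounds depend on how bright they were on d0. On the array set aside *Pth2r* and *Lyve1* were also low, at 0.95 and 0.85, whereas *Klk6* stood at 5.70.

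Among Nodal, activin and Lefty genes 8 of the 15 genes tested were higher on d2, 0 lower and 7 not past the threshold, with a median change of 0.95 (8 higher and 0 lower with all 3 d2 arrays). For this list and those below, the shares over all genes were 18.3% higher and 18.8% lower, with a median change of -0.05. The ligand *Nodal* had 5.19, 4.89 and 5.41 on d0 and 10.09 and 10.02 on d2, a change of 4.86 (SE 0.27, adjusted p = 1.76e-08), and its level on the array set aside was 9.46. All d2 arrays of *Nodal*, including that one, lay above all d0 arrays. Its EGF-CFC co-receptor *Cfc1* had 5.40, 5.51 and 5.62 on d0 and 12.37 and 12.29 on d2, a change of 6.83 (SE 0.48, adjusted p = 1.35e-07). *Foxh1*, the DNA-binding partner of Smad2 and Smad3, had 5.31, 4.66 and 4.78 on d0 and 8.52 and 9.15 on d2, a change of 4.08 (SE 0.31, adjusted p = 2.69e-07). The receptor *Acvr2b* (0.95) and the activin antagonist *Fst* (1.098) also rose. The receptor *Acvr1b* (1.14, past the threshold only with all 3 arrays) and the activin subunits *Inhba* (0.91) and *Inhbb* (-0.11) were not past the threshold.

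In the list of TGFβ and Smad feedback and target genes, 13 of the 27 genes tested were higher on d2, 3 lower and 11 not past the threshold, with a median change of 0.67 (11 higher and 5 lower with all 3 d2 arrays). The ligand *Tgfb1* had 4.06, 4.00 and 4.27 on d0 and 8.73 and 8.86 on d2, a change of 4.61 (SE 0.24, adjusted p = 7.69e-09). The array set aside was at 8.58, and all 3 d2 arrays stood apart from d0. *Tgfb3*, another ligand, changed by 3.59 (SE 0.30, adjusted p = 6.29e-07), from levels well above background on 2 of 3 d0 arrays. *Pmepa1*, a Smad-induced feedback inhibitor, had 6.31, 6.07 and 6.401 on d0 and 10.73 and 9.99 on d2, a change of 4.00 (SE 0.32, adjusted p = 4.71e-07). *Tgfb1i1*, the focal adhesion protein Hic-5, changed by 3.43 (SE 0.20, adjusted p = 2.56e-08). The inhibitory *Smad7* (1.33), the corepressors *Skil* (1.70) and *Ski* (0.67) and the pseudoreceptor *Bambi* (1.38) rose as well. *Spsb1*, which targets the type II receptor, fell by 2.90, and *Tgfbr3*, the betaglycan co-receptor, fell by 2.11. The receptors *Tgfbr1* (-0.79) and *Tgfbr2* (-0.34) and the signal carriers *Smad2* (0.00) and *Smad4* (-0.06) did not pass, although both receptors did with all 3 arrays (-0.99 and -0.37).

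For PDGF ligands and receptors, 2 of the 6 genes tested were higher on d2, 1 lower and 3 not past the threshold, with a median change of -0.06 (2 higher and 1 lower with all 3 d2 arrays). The ligand *Pdgfa* had 8.74, 8.46 and 8.75 on d0 and 9.70 and 10.65 on d2, a change of 1.58 (SE 0.30, adjusted p = 0.000996). *Pdgfb* was at least 1.6-fold higher, from levels not well above background on d0, and did not pass with low signals set to a floor (adjusted p = 0.0797). *Pdgfra*, the receptor of PDGF-A, had 12.26, 12.36 and 12.40 on d0 and 11.73 and 11.53 on d2, a change of -0.79 (SE 0.16, adjusted p = 0.00164), and its d2 arrays all lay below its d0 arrays. *Pdgfrb*, the receptor that prefers PDGF-BB, was not well above background on any array of either day. For BMP ligands, antagonists and Id genes, 5 of the 18 genes tested were higher on d2, 5 lower and 8 not past the threshold, with a median change of -0.10 (5 higher and 5 lower with all 3 d2 arrays), beside 18.3% higher and 18.8% lower over all genes. *Bmp2* had 5.90, 6.45 and 5.94 on d0 and 10.70 and 10.52 on d2, a change of 4.50 (SE 0.25, adjusted p = 1.4e-08). *Bmp4* had 3.31, 3.02 and 2.84 on d0 and 6.97 and 6.32 on d2, a change of 3.64 (SE 0.29, adjusted p = 4.93e-07). The ligands did not move together, since *Bmp6* fell by 3.27 (adjusted p = 0.000947) and *Bmp8a* by 3.16 (adjusted p = 5.26e-05).

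For FGF and ERK feedback genes, 8 of the 19 genes tested were higher on d2, 1 lower and 10 not past the threshold, with a median change of 0.22 (6 higher and 1 lower with all 3 d2 arrays). Beside *Fgf8*, the feedback inhibitor *Spry1* changed by 2.52 (SE 0.17, adjusted p = 9.71e-08) and the ERK phosphatase *Dusp4* by 2.17 (SE 0.53, adjusted p = 0.0058). *Spry2*, a paralog of *Spry1*, fell by 1.68 (adjusted p = 0.000289). *Fgf5*, a ligand of the early epiblast, was at least 1.24-fold higher, with 2.43 and 2.92, and did not pass with low signals set to a floor (adjusted p = 0.232). For Wnt pathway genes, 12 of the 30 genes tested were higher on d2, 1 lower and 17 not past the threshold, with a median change of 0.77 (11 higher and 1 lower with all 3 d2 arrays), and the median was 0.68 with bounds in place of the fitted values of genes not above background on 1 of the days. The secreted antagonist *Sfrp5* had 7.64, 7.87 and 8.01 on d0 and 14.76 and 14.59 on d2, a change of 6.76 (SE 0.45, adjusted p = 7.73e-08). The receptor *Fzd5* had 6.80, 6.67 and 6.67 on d0 and 11.83 and 11.69 on d2, a change of 5.06 (SE 0.38, adjusted p = 2.69e-07). *Fzd2* changed by 2.89 (SE 0.23, adjusted p = 4.05e-07), and *Fzd7* was at least 2.12-fold higher. *Lgr5*, an R-spondin receptor well above background on 1 of 3 d0 arrays, rose by 2.62 and *Wnt7b* fell by 1.65, while the nuclear effector *Lef1* was not above background on either day and *Dkk1* was at 0.27, not past the threshold.

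For Notch pathway genes, 1 of the 14 genes tested was higher on d2, 3 lower and 10 not past the threshold, with a median change of -0.15 (1 higher and 1 lower with all 3 d2 arrays). *Jag2*, a ligand, changed by 3.17 (SE 0.63, adjusted p = 0.00138), with 1 of 3 d0 arrays well above background, and did not pass with normexp background correction (change 0.46, adjusted p = 0.0975). *Rfng*, a glycosyltransferase of Notch, fell by 0.96, and *Dll1* and *Notch3*, a ligand and a receptor, by 1.46 and 0.41, both no longer past the threshold with all 3 arrays. Among AP-1 and immediate early genes, 4 of the 17 genes tested were higher on d2, 1 lower and 12 not past the threshold, with a median change of 0.17 (5 higher and 0 lower with all 3 d2 arrays), beside 18.3% higher and 18.8% lower over all genes. *Ccn1*, a matricellular target of YAP and SRF, changed by 1.77 (SE 0.17, adjusted p = 2.34e-06), *Klf6* by 1.23 (SE 0.33, adjusted p = 0.0102) and *Ier2* by 0.96 (SE 0.11, adjusted p = 1.8e-05). *Klf2* fell by 1.04, and not past the threshold with all 3 arrays (adjusted p = 0.166). *Fos* (0.58), *Jun* (0.46) and *Egr1* (-0.28) were not past the threshold.

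Most smooth muscle contractile genes were higher, since 18 of the 24 genes tested were higher on d2, 1 lower and 5 not past the threshold, with a median change of 1.16 (17 higher and 0 lower with all 3 d2 arrays), beside 18.3% higher and a median of -0.05 over all genes. *Tagln*, which encodes SM22α, had 9.39, 9.19 and 9.35 on d0 and 14.13 and 13.97 on d2, a change of 4.73 (SE 0.24, adjusted p = 6.14e-09) by a probe at chr8:48902736-48903116 (rn4). The array set aside was at 12.24, and all d2 arrays were above all d0 arrays. *Cnn1*, calponin 1, had 8.06, 7.62 and 7.82 on d0 and 10.21 and 10.36 on d2, a change of 2.46 (SE 0.20, adjusted p = 6.4e-07). *Pdlim3*, a Z-disc protein that binds α-actinin, had 3.41, 2.14 and 2.66 on d0 and 11.35 and 10.44 on d2, a change of 8.14 (SE 0.45, adjusted p = 1.52e-08), with 2 of 3 d0 arrays well above background. Its level on the array set aside was 4.16, closer to d0 than to d2. *Myl9*, the regulatory light chain, changed by 3.48 (SE 0.30, adjusted p = 1.05e-06), and *Tpm2*, a tropomyosin, by 3.39 (SE 0.37, adjusted p = 7.58e-06). *Lmod1*, a nucleator of actin filaments, was at least 3.95-fold higher. *Smtn*, smoothelin, had 10.14, 10.01 and 10.36 on d0 and 11.42 and 11.63 on d2, a change of 1.28 (SE 0.15, adjusted p = 1.91e-05). The visceral actin *Actg2* went the other way and fell by 1.096 (adjusted p = 0.0187, not past the threshold with all 3 arrays). *Des* (-0.48) did not pass, and *Mylk*, the kinase of the light chain, and *Itga8*, an integrin of SMCs, were not well above background on any array of either day. In 3c3, 12 of the 24 were higher on d2 and 0 lower, beside 17.2% and 16.7% of all genes. Markers of cardiac and skeletal muscle moved with this list, from a summed signal of 5448 to 6703 on d0 to 15120 to 17299 on d2, and their part in it was not tested.

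The list of SRF, myocardin family, MEF2 and GATA factors stood near the background, as 4 of the 16 genes tested were higher on d2, 3 lower and 9 not past the threshold, with a median change of 0.22 (4 higher and 3 lower with all 3 d2 arrays). *Srf* had 13.19, 13.25 and 13.09 on d0 and 14.02 and 13.90 on d2, a change of 0.90 (SE 0.15, adjusted p = 0.000361). With the mean over its probes in place of the brightest probe the change was 0.37 and not past the threshold (adjusted p = 0.135). *Mrtfa*, a cofactor of SRF held back by monomeric actin, rose by 0.52. *Myocd*, which encodes myocardin, did not stand well above background on d0 or d2, and was at 7.04 in the aortic SMC RNA. *Nkx2-5*, a cardiac homeobox factor, was at least 42-fold higher on d2, with 7.90 and 7.61, but 0.24 on the array set aside. *Csrp2*, a LIM protein of SMCs, changed by 0.95 (SE 0.21, adjusted p = 0.00288), though not past the threshold with scaling by the 75th percentile. *Gata6*, a factor of endoderm and SMCs, had 13.48, 13.16 and 13.05 on d0 and 12.01 and 11.98 on d2, a change of -1.19 (SE 0.28, adjusted p = 0.00489), with 13.07 on the array set aside, level with d0, and its call was lost without d2 replicate 3. *Klf5*, a zinc finger factor, fell by 1.98 (adjusted p = 5.67e-05).

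Among BAF subunits the largest change was that of *Smarcd3*, which encodes BAF60c, a subunit known from heart and muscle. Its levels were 5.64, 5.86 and 6.04 on d0 and 12.67 and 12.31 on d2, a change of 6.71 (SE 0.25, adjusted p = 5.18e-10) and thus 104-fold, by a probe at chr4:5959631-5959690 (rn4). The array set aside had 9.90, between the days, and the aortic SMC RNA had a mean of 14.63. The change from d0 was 7.38 on d4 and 6.13 on d6. Over the list, 3 of the 22 genes tested were higher on d2, 2 lower and 17 not past the threshold, with a median change of 0.06 (2 higher and 2 lower with all 3 d2 arrays). Its paralogs *Smarcd1* (0.29) and *Smarcd2* (-0.21) were not past the threshold, though *Smarcd2* passed it with all 3 arrays. *Smarca2*, the BRM ATPase, fell by 0.84 and *Brd7* by 0.43, while *Phf10* rose by 0.82, and the calls of *Smarca2* and *Phf10* were lost with all 3 arrays. The levels of *Brd7* overlapped, at 8.11, 9.26 and 8.02 on d0 and 8.79 and 7.50 on d2. Its call was lost with no replicate block (adjusted p = 0.780) and with the authors' table (adjusted p = 0.426). The ATPase *Smarca4* was at -0.11, not past the threshold.

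*Smarcd3*, *Nodal*, *Pmepa1* and *Cdkn2b* rose in medium with TGFβ, and the last of them is a known Smad target, so the 250 bases before their starts in RefSeq are shown, on the assembly GRCr8, with each CAGAC, the core of a Smad-binding element, in capitals on either strand (as CAGAC or GTCTG). The promoter of *Srf* is shown with its CArG boxes in capitals.
Smarcd3 start 1 (chr4:11440950-11441199, plus strand): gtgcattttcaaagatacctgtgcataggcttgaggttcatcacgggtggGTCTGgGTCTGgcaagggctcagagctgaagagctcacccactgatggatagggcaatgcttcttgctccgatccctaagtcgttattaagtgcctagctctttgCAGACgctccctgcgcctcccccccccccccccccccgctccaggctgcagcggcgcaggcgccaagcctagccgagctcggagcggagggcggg
Smarcd3 start 2 (chr4:11463026-11463275, plus strand): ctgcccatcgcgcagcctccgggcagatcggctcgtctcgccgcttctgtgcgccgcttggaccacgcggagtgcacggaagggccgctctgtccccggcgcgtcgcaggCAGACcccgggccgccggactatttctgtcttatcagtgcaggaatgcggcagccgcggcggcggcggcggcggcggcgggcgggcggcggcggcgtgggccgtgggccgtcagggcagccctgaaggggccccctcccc
Nodal (chr20:29911008-29911257, plus strand): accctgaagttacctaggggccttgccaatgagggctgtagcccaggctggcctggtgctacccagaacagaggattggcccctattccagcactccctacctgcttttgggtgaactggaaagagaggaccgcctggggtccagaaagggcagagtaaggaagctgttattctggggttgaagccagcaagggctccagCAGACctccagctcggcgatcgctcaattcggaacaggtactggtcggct
Pmepa1 (chr3:182478650-182478899, minus strand): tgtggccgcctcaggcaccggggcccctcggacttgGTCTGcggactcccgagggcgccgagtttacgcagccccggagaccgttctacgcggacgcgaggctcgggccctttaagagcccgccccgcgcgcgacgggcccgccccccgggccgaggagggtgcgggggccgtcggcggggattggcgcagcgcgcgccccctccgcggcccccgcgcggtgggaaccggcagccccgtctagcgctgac
Cdkn2b (chr5:109134856-109135105, minus strand): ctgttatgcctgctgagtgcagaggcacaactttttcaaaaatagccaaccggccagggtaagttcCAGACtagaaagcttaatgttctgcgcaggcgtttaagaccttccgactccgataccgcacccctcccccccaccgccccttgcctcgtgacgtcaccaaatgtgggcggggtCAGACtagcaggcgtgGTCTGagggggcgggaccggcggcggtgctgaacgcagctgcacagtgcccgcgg
Srf (chr9:21923826-21924075, plus strand): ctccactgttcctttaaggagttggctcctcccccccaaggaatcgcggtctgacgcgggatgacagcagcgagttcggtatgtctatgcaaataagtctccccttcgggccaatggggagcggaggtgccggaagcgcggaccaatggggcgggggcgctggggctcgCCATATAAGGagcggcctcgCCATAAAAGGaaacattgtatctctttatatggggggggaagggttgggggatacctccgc

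The first start of *Smarcd3* had 3 matches and the second 1, *Cdkn2b* had 3, and *Nodal* and *Pmepa1* had 1 each. Only promoters with a match are shown, so they do not stand for all genes that rose. CAGAC occurs in 42.9% of all 33469 promoters of this length, in 26 of the 65 promoters found for 61 of the 84 named genes that rose, and in 13 of the 32 for those that fell (40.6%). The CArG box was found in 1.5% of all promoters, in 2 of the 65 and in 0 of the 32, and that of *Srf* held 2. A match describes the letters and says nothing about binding. The Smad-binding elements that the study deleted in the *Smarcd3* promoter lie farther upstream than the bases shown.

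Mesendoderm genes, which mark the common precursor of mesoderm and endoderm, had a high median, as 10 of the 15 genes tested were higher on d2, 2 lower and 3 not past the threshold, with a median change of 3.58 (9 higher and 2 lower with all 3 d2 arrays). *Gsc*, goosecoid, a homeobox factor of the organizer, had 6.08, 5.45 and 5.95 on d0 and 12.09 and 11.63 on d2, a change of 5.96 (SE 0.41, adjusted p = 1.11e-07), with 5.65 on the array set aside, level with d0. The 3c3 d2 arrays had a mean of 5.42. *Cxcr4*, a chemokine receptor of definitive endoderm, had 2.46, 1.88 and 3.19 on d0 and 10.28 and 10.57 on d2, a change of 7.73 (SE 0.75, adjusted p = 3.16e-06), with 1 of 3 d0 arrays well above background. *Cited4*, a transcriptional coactivator, had 3.07, 2.24 and 2.54 on d0 and 9.29 and 9.93 on d2, a change of 7.09 (SE 0.51, adjusted p = 1.57e-07), with 2 of 3 d0 arrays well above background. On the array set aside *Cxcr4* lay near d0, at 3.88, and *Cited4* nearer to d2, at 7.98. *Lhx1*, a LIM homeobox factor, had 6.11, 6.02 and 5.80 on d0 and 11.42 and 11.41 on d2, a change of 5.37 (SE 0.63, adjusted p = 1.7e-05). *Sox4*, an SRY-related factor, had 9.55, 9.41 and 9.71 on d0 and 14.32 and 13.86 on d2, a change of 4.51 (SE 0.26, adjusted p = 2.07e-08). *Eomes*, a T-box factor required for mesendoderm, had 5.58, 5.55 and 5.38 on d0 and 9.12 and 8.97 on d2, a change of 3.58 (SE 0.51, adjusted p = 8.95e-05). For all 6 genes d2 replicates 2 and 3 lay above every d0 array. *Mixl1*, a homeobox gene of the primitive streak, was at least 23.3-fold higher. *Sox17*, an endoderm factor, fell by 1.57 (adjusted p = 0.00198). *Foxc2*, a forkhead factor of mesoderm, had 6.27, 6.70 and 6.61 on d0 and 6.79 and 6.45 on d2 and did not pass (change 0.02, adjusted p = 0.947).

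The progenitor label was checked with 2 lists. On d0 *Pou5f1*, *Gata4* (13.68, 13.53 and 13.61), *Gata6*, *Sox7* (9.70, 9.75 and 9.67) and *Sox17* (11.99, 11.90 and 12.12) were well above background, while *Sox2* was on no d0 array. For pluripotency genes, 3 of the 16 genes tested were higher on d2, 5 lower and 8 not past the threshold, with a median change of -0.14 (4 higher and 5 lower with all 3 d2 arrays). *Dppa3*, a maternal chromatin factor, had 6.69, 5.26 and 5.61 on d0, was not well above background on d2 and fell at least 14.3-fold, but stood at 6.96 on the array set aside. *Tfcp2l1* fell by 1.92 and *Tbx3* by 1.64, both factors of the naive state. Upwards, the DNA methyltransferase *Dnmt3b* had 11.24, 11.14 and 11.21 on d0 and 13.78 and 13.95 on d2, a change of 2.64 (SE 0.43, adjusted p = 0.000309), and *Tet1*, which oxidizes methylcytosine, changed by 2.61 (SE 0.55, adjusted p = 0.00212), with 1 of 3 d0 arrays well above background.

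For primitive and visceral endoderm genes, 19 of the 40 genes tested were higher on d2, 10 lower and 11 not past the threshold, with a median change of 0.73 (19 higher and 10 lower with all 3 d2 arrays). Among those that rose were secreted transport proteins of the visceral endoderm and liver, with *Apob*, *Apoa4* and *Ttr* above and *Afp*, α-fetoprotein, at 3.33, 3.28 and 2.28 on d0 and 9.86 and 10.20 on d2, a change of 6.93 (SE 0.67, adjusted p = 3.03e-06). *Rbp4*, the retinol carrier, was like *Afp* well above background on 2 of 3 d0 arrays and changed by 7.16 (SE 0.39, adjusted p = 1.25e-08), *Apoa1* by 6.51 (SE 0.57, adjusted p = 1.05e-06) and *Plat*, a plasminogen activator, by 5.11 (SE 0.23, adjusted p = 2.06e-09). Of the factors, *Otx2*, of anterior visceral endoderm, had 6.83, 6.75 and 6.75 on d0 and 14.19 and 13.94 on d2, a change of 7.21 (SE 0.50, adjusted p = 1.04e-07), *Foxa3* was at least 19.2-fold higher and *Hhex* rose by 3.14. The 10 that fell were the factors *Gata6* and *Sox17*, the receptor *Pdgfra*, the ligand *Ihh* (fell by 1.21), the surface protein *Thbd* (fell by 3.35) and the basement membrane genes *Lama1*, *Lamb1*, *Col4a1*, *Col4a2* and *Sparc* (changes from -2.36 to -1.02), known from parietal endoderm. *Gata4* (-0.44) and *Sox7* (-0.07) were not past the threshold.

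Of epithelial junction and adhesion genes the majority was higher, since 26 of the 46 genes tested were higher on d2, 1 lower and 19 not past the threshold, with a median change of 1.04 (26 higher and 1 lower with all 3 d2 arrays). The claudin *Cldn7* had 8.75, 8.25 and 9.10 on d0 and 13.51 and 13.86 on d2, a change of 5.01 (SE 0.54, adjusted p = 7.32e-06), and *Cldn4* changed by 4.02 (SE 0.32, adjusted p = 3.75e-07). *Cldn2*, a pore-forming claudin, was at least 12.9-fold higher. *Cdh1*, E-cadherin, had 10.24, 10.39 and 10.26 on d0 and 13.20 and 12.85 on d2, a change of 2.60 (SE 0.22, adjusted p = 6.96e-07), and *Ocln*, occludin, had 7.07, 7.08 and 7.17 on d0 and 9.76 and 9.62 on d2, a change of 2.63 (SE 0.20, adjusted p = 2.94e-07). The array set aside was at 11.70 and 9.64 for these, above all d0 arrays. *Grhl2*, a grainyhead factor of epithelia, changed by 4.22 (SE 0.66, adjusted p = 0.000208), but was at 0.59 on the array set aside and its call was lost with it. Among mesenchymal transition genes, 2 of the 17 genes tested were higher on d2, 3 lower and 12 not past the threshold, with a median change of -0.19 (2 higher and 3 lower with all 3 d2 arrays). *Zeb1*, a repressor of E-cadherin, had 5.94, 5.82 and 6.05 on d0 and 3.26 and 3.01 on d2, a change of -2.79 (SE 0.23, adjusted p = 7.09e-07). *Vim*, vimentin, fell by 1.30 and *Prrx2*, a homeobox factor, by 2.47. *Mmp14*, a membrane metalloprotease, changed by 3.27 (SE 0.34, adjusted p = 5.2e-06) and *Cdh2*, N-cadherin, was at least 8.68-fold higher. *Snai1* (-0.55) and *Twist1* (0.15) were not past the threshold.

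Extracellular matrix genes stood near the background in both directions, as 9 of the 47 genes tested were higher on d2, 10 lower and 28 not past the threshold, with a median change of -0.10 (8 higher and 9 lower with all 3 d2 arrays). *Spon2*, a secreted F-spondin relative, had 4.26, 4.31 and 4.85 on d0 and 11.14 and 11.11 on d2, a change of 6.47 (SE 0.27, adjusted p = 1.29e-09). *Lama5*, the laminin α5 chain, had 7.84, 7.11 and 7.58 on d0 and 13.77 and 13.77 on d2, a change of 6.20 (SE 0.26, adjusted p = 1.33e-09), while *Lama1*, the α1 chain, fell by 2.36. *Fbln2*, fibulin 2, went from 4.81, 4.70 and 4.84 to 9.41 and 8.82, but was 2.50 on the array set aside, below d0, and did not pass with all 3 arrays (adjusted p = 0.125). *Col5a3*, a fibrillar collagen chain, fell by 3.78 (adjusted p = 5.4e-08). For motile cilium genes, 7 of the 20 genes tested were higher on d2, 0 lower and 13 not past the threshold, with a median change of 0.55 (7 higher and 0 lower with all 3 d2 arrays), and the median was 0.36 with bounds. *Foxj1*, the main regulator of motile cilia, had 4.79, 4.54 and 4.74 on d0 and 9.24 and 10.99 on d2, a change of 5.34 (SE 0.61, adjusted p = 1.26e-05). *Lrrc23*, a radial spoke protein, was at least 9.95-fold higher, the dynein *Dnai1* at least 2.64-fold, and *Dnah1*, another dynein, changed by 2.75 (SE 0.44, adjusted p = 0.000256). The other probe of *Dnah1* did not pass, and with the mean over its probes the change was 1.24 (adjusted p = 0.0149). *Dnai1* did not pass with low signals set to a floor (adjusted p = 0.0963) or with normexp background correction (adjusted p = 0.47).

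For CDK inhibitors, D cyclins and Myc genes, 7 of the 16 genes tested were higher on d2, 2 lower and 7 not past the threshold, with a median change of 0.33 (5 higher and 3 lower with all 3 d2 arrays). *Cdkn2b*, which encodes p15 and is induced by TGFβ in epithelial cells, had 3.51, 3.16 and 3.85 on d0 and 10.37 and 9.97 on d2, a change of 6.60 (SE 0.32, adjusted p = 4.45e-09), with 5.29 on the array set aside. *Cdkn2a*, which encodes p16 and p19ARF, changed by 2.77 (SE 0.32, adjusted p = 1.42e-05), but had 6.81 on the array set aside, below d0, and was not past the threshold with all 3 arrays (adjusted p = 0.126). *Cdkn1c*, which encodes p57, had 14.37, 14.52 and 14.78 on d0 and 10.98 and 11.47 on d2, a change of -3.28 (SE 0.38, adjusted p = 1.59e-05). *Mycl* changed by 4.05 (SE 0.28, adjusted p = 1.21e-07), *Cdkn1a*, which encodes p21, rose by 1.03 and *Ccnd1* fell by 2.21, whereas *Myc* was at 0.33, not past the threshold. For cell cycle and DNA replication genes, 2 of the 53 genes tested were higher on d2, 2 lower and 49 not past the threshold, with a median change of -0.22 (2 higher and 2 lower with all 3 d2 arrays), beside 18.3% higher and 18.8% lower over all genes. *Rrm2*, a subunit of ribonucleotide reductase, fell by 1.87 (adjusted p = 0.0153), while the phosphatase *Cdc25b*, the kinase *Cdk4* and the factor *Mybl2* changed by 0.72, 0.40 and -0.94, the last 2 not past the threshold with all 3 arrays. *Cdc25b* (adjusted p = 0.0415) did not pass when any single array was left out, with no replicate block, with no filter, with Cl19 arrays only or without the slide of 3c3 replicate 3 (adjusted p from 0.0598 to 0.257).

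Among glycolysis and hypoxia genes, 9 of the 34 genes tested were higher on d2, 4 lower and 21 not past the threshold, with a median change of -0.03 (9 higher and 2 lower with all 3 d2 arrays), beside 18.3% higher and 18.8% lower over all genes. *Adm*, adrenomedullin, had 9.03, 8.79 and 8.89 on d0 and 12.89 and 13.52 on d2, a change of 4.19 (SE 0.30, adjusted p = 1.56e-07), *Slc2a3*, a glucose transporter, changed by 2.12 (SE 0.26, adjusted p = 2.54e-05), *Eno2*, an enolase, by 2.27 (SE 0.67, adjusted p = 0.0182) and *Pfkfb3*, which makes an activator of glycolysis, by 2.51 (SE 0.29, adjusted p = 1.58e-05). All 4 went up, and *Pfkfb3* was well above background on 2 of 3 d0 arrays. For cholesterol and fatty acid synthesis genes, 4 of the 29 genes tested were higher on d2, 3 lower and 22 not past the threshold, with a median change of 0.23 (6 higher and 3 lower with all 3 d2 arrays). *Sqle*, of cholesterol synthesis, rose by 1.27, while *Stard4*, a sterol carrier, and *Fasn*, fatty acid synthase, fell by 1.23 and 0.99. For amino acid stress response genes, 1 of the 27 genes tested was higher on d2, 3 lower and 23 not past the threshold, with a median change of -0.21 (1 higher and 4 lower with all 3 d2 arrays). The transporter *Slc7a1* and the enzymes *Pycr1* and *Psat1* fell by 2.50, 2.21 and 1.82, and *Ddit4*, an inhibitor of mTORC1, changed by 1.72 (SE 0.40, adjusted p = 0.00447). For interferon and antigen presentation genes, 6 of the 25 genes tested were higher on d2, 5 lower and 14 not past the threshold, with a median change of 0.02 (6 higher and 5 lower with all 3 d2 arrays), near the shares of all genes (18.3% and 18.8%). *Ifitm1*, a membrane protein also known from germ cells, had 12.59, 12.53 and 12.51 on d0 and 8.14 and 8.40 on d2, a change of -4.47 (SE 0.35, adjusted p = 3.44e-07). *Gbp2*, a guanylate-binding protein, changed by 2.35 (SE 0.28, adjusted p = 1.74e-05), *Ifit3* and *Mx2* were at least 2.42-fold and 2.17-fold higher (with all 3 arrays *Ifit3* was not tested and *Mx2* not past the threshold), and *Psmb9* and *Psmb8* of the immunoproteasome fell by 1.65 and 1.37.

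**Figure D3:**
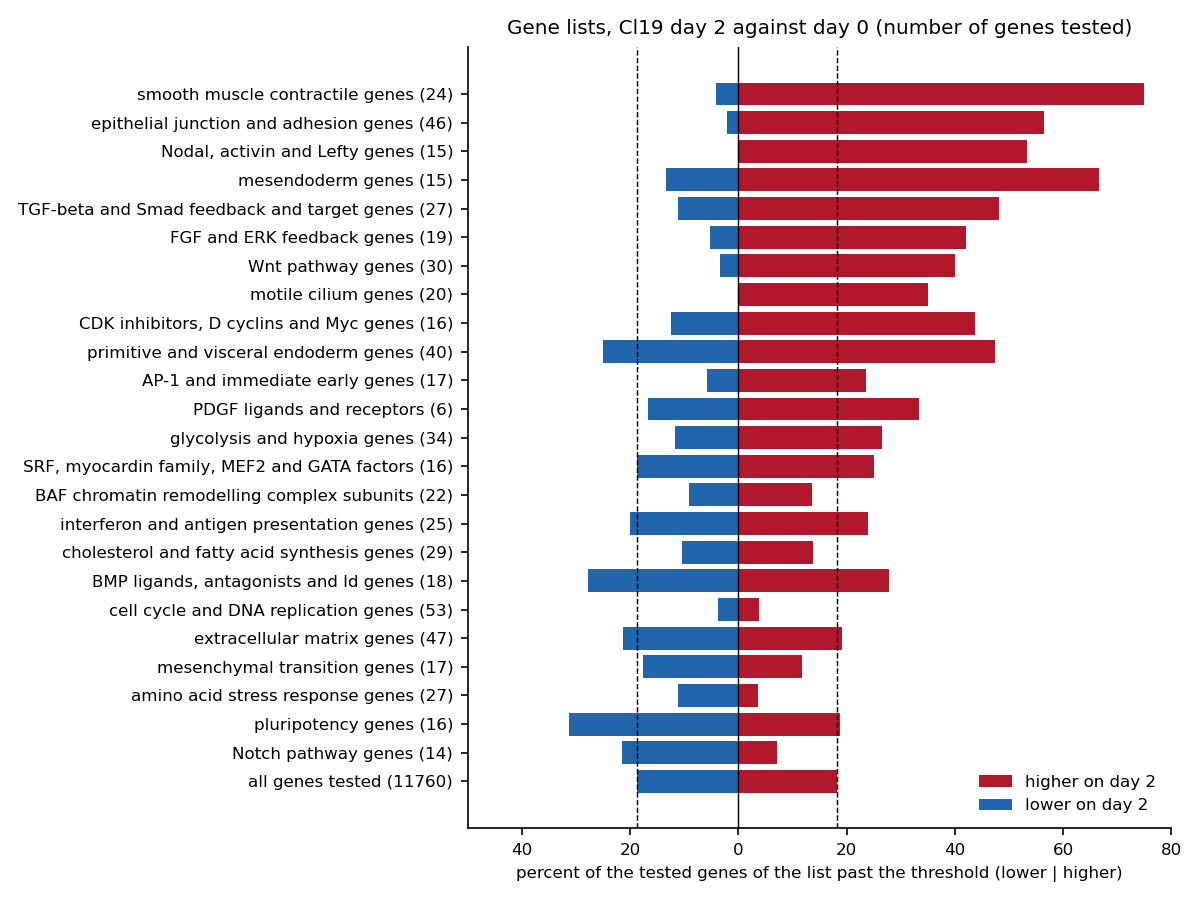
Percent of the tested genes of each list that passed the threshold on d2 against d0, higher to the right and lower to the left, with the number of genes tested in parentheses and dashed lines at the shares of all genes (18.3% and 18.8%). The bars of the smooth muscle, epithelial, Nodal and mesendoderm lists reach farthest to the right, and those of the cell cycle list stay inside both lines.

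Markers of other cell types were read as the linear signal summed over each list, between lowest and highest array. Cardiac and skeletal muscle markers, higher on d2 as given above, summed to 6048 on the array set aside. *Nppa*, atrial natriuretic peptide, was at least 47-fold higher and *Actc1*, cardiac actin, changed by 3.18 (SE 0.77, adjusted p = 0.00584), but not past the threshold with all 3 arrays (adjusted p = 0.569), *Myh6*, a cardiac myosin heavy chain, fell by 3.20 (adjusted p = 8.91e-05), and *Myl2*, *Myod1*, *Myog* and *Ckm* were not well above background on d0 or d2. Trophoblast markers summed to 362 to 564 on d0 and 6631 to 7862 on d2 (825 on the array set aside), and *Krt7* and *Gata2*, a zinc finger factor, rose (7.81 and 4.13), *Tfap2c*, an AP-2 factor, fell by 3.62 (not past the threshold with all 3 arrays), and *Krt7* made up most of the d2 sum, with *Elf5*, *Gcm1*, *Tfap2a* and *Prl3b1* not well above background. Fibroblast and stromal markers summed to 35804 to 43133 on d0 and 4443 to 5282 on d2 (12253 on the array set aside). *Mfap5*, a microfibril protein, had 15.12, 15.29 and 15.39 on d0 and 11.92 and 12.19 on d2 and made up nearly all of the d0 sum, *Col1a1*, a fibrillar collagen chain, rose by 2.05, *Pdpn* was at 0.37, not past the threshold, and 7 of the 13, *Lum*, *Prrx1*, *Pdgfrb*, *Dcn*, *Thy1*, *Fap* and *Dpt*, were not well above background on d0 or d2. Endothelial markers summed to 2580 to 2840 on d0 and 1800 to 2231 on d2, and *Pecam1* and *Tek*, well above background on 1 of the 2 d2 arrays, fell (changes -3.62 and -3.403), while *Kdr*, a VEGF receptor well above background on 1 of 3 d0 arrays, rose by 2.10 (adjusted p = 0.0468, and 0.268 with all 3 arrays). Haematopoietic markers summed to 403 to 485 and 1266 to 1503, with *Coro1a*, most of the d2 sum, at a change of 2.63, *Fcer1g*, an Fc receptor chain, lower by a change of -1.33, and *Ptprc*, *Itgam*, *Cd3e* and *Spi1* not well above background. Neural markers summed to 5272 to 5439 and 8630 to 11992, with *Nes*, nestin, at a change of 0.93 and *Pax6*, *Map2*, *Neurod1*, *Neurog1* and *Olig2* not well above background. The part of such cells in the changes above was not tested.

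The same step was measured in 3c3, where 3985 genes passed (33.9%), and the difference between the lines was tested in the same fit. It passed for 1322 probes (5.36%, with 3.19% more positive and 2.17% more negative in Cl19), or 798 genes (6.79%), 472 of them with the more positive change in Cl19 (4.01%) and 326 with the more negative (2.77%). This count rests on the array set aside, since with all 3 d2 arrays it was 178 probes (0.728%), 77 with the more positive change (0.315%) and 101 with the more negative (0.413%). Of the 128 genes chosen by the size of their change, by list or because the study names them, 53 differed, 41 with a larger rise and 12 with a larger fall in Cl19. Since many were chosen for a large change in Cl19, which favours a larger change in Cl19 than in 3c3, this count and its directions only describe the chosen genes. With all 3 arrays 52 of the 53 were tested (*Fgf5* was not), with the same sign of the difference in each, and 4 passed the threshold. They were *Pmepa1*, which rose by 4.00 in Cl19 and had 0.67 in 3c3 (adjusted p of the difference = 0.000376, and 0.00631 with all 3), *Tmem35a* (0.000188 and 0.00631), *Pth2r* (0.00552 and 0.0159) and *Lyve1* (0.0209 and 0.0367). *Tmem35a*, *Pth2r* and *Lyve1* were not well above background on d2 in Cl19, so the size of their falls and of these differences is not fixed. Their mean d0 levels were 8.12, 7.46 and 5.86 in Cl19, and 6.07, 5.70 and 2.75 in 3c3. *Gsc* and *Smarca2* changed past the threshold in opposite directions. *Gsc* changed by 5.96 in Cl19 and -1.04 in 3c3, with an adjusted p of the difference of 3.12e-05, and 0.116 with all 3 arrays. *Lefty2* changed by 10.38 and 3.14 (0.00112, and 0.161 with all 3). *Smarcd3* changed by 6.71 and 3.57 (0.000116, and 0.157 with all 3). For *Nodal* the changes were 4.86 and 4.82, with a difference of 0.04 (SE 0.36, adjusted p = 0.989). For *Tgfb1* they were 4.61 and 4.77, with a difference of -0.16 (SE 0.31, adjusted p = 0.936).

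**Figure D4:**
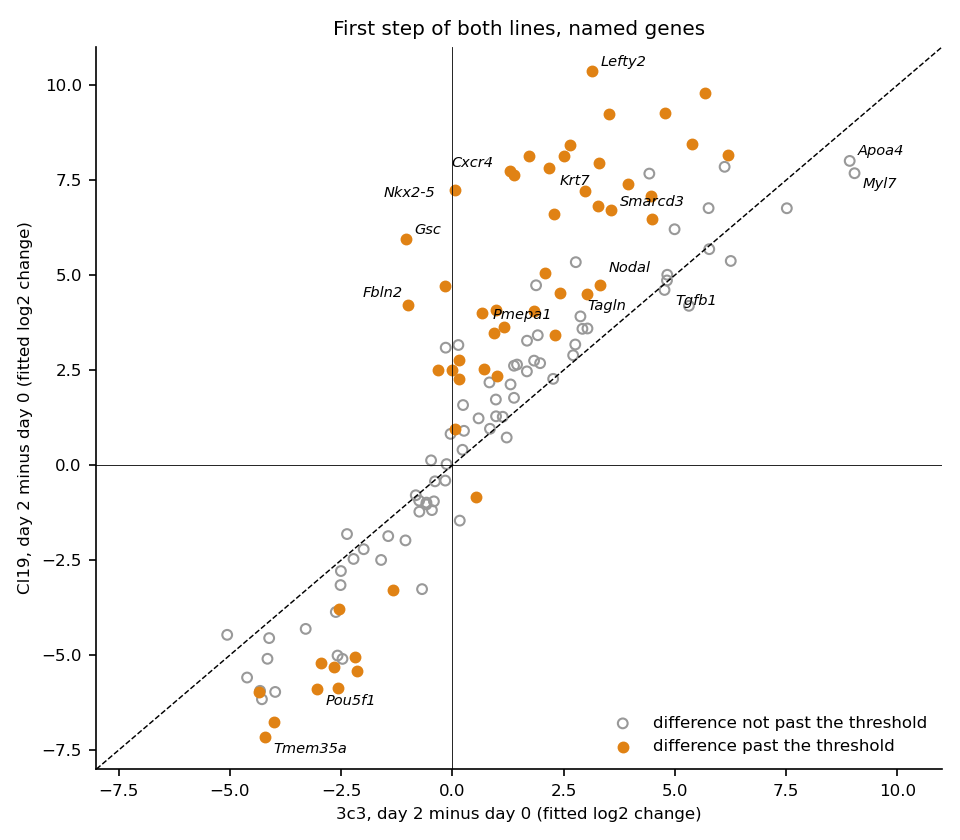
Fitted log2 change from d0 to d2 of the 128 chosen genes in 3c3 (horizontal) and Cl19 (vertical), with filled points where the difference between the lines passed the threshold without Cl19 d2 replicate 1 (53 genes, 4 of them also with it) and the dashed line where both changes are equal. *Nodal* and *Tgfb1* lie close to the line, and *Gsc* and *Nkx2-5* far above it.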

How the data were processed

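RNA of each sample was labelled with 1 dye and hybridized to an Agilent rat array. The deposited scanner files hold background-subtracted intensity per feature (Agilent Feature Extraction 10.1.1.1, credited to the file headers), and the value table deposited by the authors holds log2 of the same signal, equal to it within 5.2e-14 log2 units and not normalized between arrays. Control spots and flagged outliers were left out, spots of a probe were averaged, and log2 intensities were quantile normalized over the 26 arrays. A probe was tested if all arrays of 1 or more of the 9 groups held it well above background, and each gene was read by its brightest probe. Of 41012 probes, 16435 were named through an accession, 3710 through a gene name and 1092 through a synonym in RefSeq gene tables. Probe coordinates are those of the array annotation (rn4), and promoters are RefSeq sequences on GRCr8.

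A model with the 9 groups and the slide was fitted to 25 arrays with limma 3.58.1 (R 4.3.3) and empirical Bayes, and p-values were adjusted by Benjamini-Hochberg over all probes tested, with a threshold of 0.05. Each slide held the 4 days of a replicate number of a line, so the numbers pair the samples, and deviations of samples with the same number correlated by 0.64 in Cl19 and by 0.42 to 0.75 in 3c3. The lines were scanned on different days, which cannot be told apart from the line in levels, while changes were taken within slides. A gene not well above background on any array of a day has a bound on its fold, against the higher of its own signal and the lowest signal well above background on each array. Genes were named as the 10 largest rises and falls measured on both days, the 8 largest to or from background, those the study names, and up to 4 per list with the largest change past the threshold, and further members of a list were chosen after their values were seen. The samples, lists and tests were chosen with earlier results of these data known. Alternatives were the scaling, the background correction, the authors' table, the filter, a floor, the samples fitted, the block, Student's t-test, the mean over probes and leaving out each array. The main test was run on simulated data in which few probes changed, unlike these data, with independent noise. Of 50 probes changed by 0.5 log2 units 5 were called in the right direction. For 1, 2 and 4 units it was 24, 36 and 49 of 50. Of the 122 probes called, 8 were unchanged. The number of arrays limits the precision (median SE of a change 0.24 log2 units). There were 0 columns of samples outside the series. *Acta2* was not analysed here, and some other genes that the rule would name are not reported here. Figures were drawn with Python 3.11.15 and matplotlib 3.10.9.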

Additional observations from a re-analysis of the deposited data

Results flagged for a closer look

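The change from d0 to d2 differed between Cl19 and 3c3 for 53 of the 128 named genes in the fit without Cl19 d2 replicate 1, by the test of the difference in limma (highest adjusted p = 0.0459, n = 2 pairs in Cl19 and 3 in 3c3). Over all genes tested it was 798 of 11760 (6.79%), and the named genes were chosen largely for their change in Cl19, so their share and directions are a description. Values are the change in Cl19 minus that in 3c3 in log2 units. For genes not well above background on any Cl19 d0 array, such as *Apob*, *Rgs8*, *Ntm*, *Crispld2* and *Fgf5*, they are differences of fitted values, not bounds. The bound on the rise of *Fgf5* in Cl19 was 1.24-fold. With all 3 d2 arrays the difference passed only for *Pmepa1* (3.34 without and 3.03 with that array), *Tmem35a* (-2.94 and -2.58), *Pth2r* (-2.75 and -2.63) and *Lyve1* (-2.84 and -2.87), so that the others rest on leaving it out. Of these, *Tmem35a*, *Pth2r* and *Lyve1* left the measurable range on d2 in Cl19 and were brighter on d0 in Cl19 than in 3c3. The size of their differences is therefore not fixed. No group held more than 3 arrays, and none was searched for outliers by gene.

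Among genes of the Nodal, mesendoderm and endoderm lists the rise was larger in Cl19 by 7.24 for *Lefty2*, 6.998 for *Gsc*, 6.44 for *Cxcr4*, 4.23 for *Otx2*, 4.13 for *Apob*, 3.55 for *Cfc1*, 3.11 for *Foxh1*, 2.62 for *Cited4* and 2.11 for *Sox4*. For genes of muscle, its factors and the BAF complex the difference was 7.18 for *Nkx2-5*, 5.64 for *Pdlim3*, 3.14 for *Smarcd3*, 2.53 for *Myl9*, 1.42 for *Tagln*, 1.13 for *Tgfb1i1* and -1.38 for *Smarca2*. For ligands, receptors and feedback genes it was 2.99 for *Fzd5*, 2.50 for *Pdgfb*, 2.48 for *Bmp4*, 2.12 for *Fgf5*, 1.80 for *Spry1*, 1.46 for *Bmp2* and 0.89 for *Ier2*.

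For genes of the cell cycle lists it was 4.31 for *Cdkn2b*, 2.62 for *Cdkn2a*, 2.21 for *Mycl* and -1.93 for *Cdkn1c*. For matrix and cilium genes it was 5.20 for *Fbln2*, 4.89 for *Lrrc23*, 1.99 for *Spon2* and -1.22 for *Col5a3*, and *Pfkfb3* of glycolysis (2.83) and *Gbp2* of the interferon list (1.36) also differed. Of the remaining large rises it was 6.42 for *Rgs8*, 6.25 for *Ntm*, 5.76 for *Nptx2*, 5.71 for *Crispld2*, 5.64 for *Krt7*, 4.68 for *Car2*, 4.49 for *Dcdc2*, 3.45 for *Igfbp2*, 3.07 for *Lcp1* and 1.98 for *Tmprss2*. The fall was larger in Cl19 for *Spn* (-3.30), *Rgs7bp* (-3.27), *Pou5f1* (-2.84), *Sncb* (-2.66), *C5ar2* (-2.26) and *Bpifb6* (-1.63).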

How the results depend on the processing

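The count of probes past the threshold on d2 against d0, 7923, stayed within 1.5 times of it in every setting except for leaving out single arrays. Leaving out each array in turn gave 4632 to 7612 probes and 2665 to 4107 genes (4360 with none left out), lowest without Cl19 d2 replicate 3 (4632 probes and 2665 genes), with 4698 probes and 2673 genes without Cl19 d2 replicate 2. The single d2 array left is then assumed to vary like the other groups. The slide as a block pairs the days, and with no replicate block 6121 probes, 3532 genes and 862 probes of the line difference passed.

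The difference between the lines, 1322 probes, was the least stable, with 178 when Cl19 d2 replicate 1 was kept, 677 without the slide of 3c3 replicate 3, which had a higher background, and 594 to 1265 when a single Cl19 array was left out (792 and 778 without d0 replicates 2 and 3, 594 and 732 without d2 replicates 2 and 3). It could not be fitted from Cl19 arrays alone. Student's t-test, which the study names for its comparisons in general, gave 9789 probes at an unadjusted 0.05 and 5866 after Benjamini-Hochberg. For its arrays the study instead selected probes by the area between their time course and the d0 level, which was not repeated here. Of the genes in the lists 242 of 574 passed, beside 37.1% of all genes tested. Alternatives that kept 2 or more arrays per group gave 202 to 315. The 315 were out of 527, from the Cl19 d0 and d2 arrays alone, where 5561 of all 11051 genes passed. No named gene reversed. Between 0 and 18 lost the call, most without d2 replicate 3 (among them *Gata6*, *Smarca2*, *Klf6*, *Pycr1* and *Ddit4*) and 14 without d2 replicate 2 (among them *Dusp4* and *Dll1*). *Eno2*, *Mx2*, *Dnai1*, *Jag2* and *Dll1* lost it with normexp background correction, *Fgf5*, *Dnai1* and *Pdgfb* with a floor, *Phf10*, *Cdk4* and *Csrp2* with scaling by the 75th percentile, and *Srf* with the mean over its probes. The 2 arrays of d2 limit the precision of every change.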
